A study of Mus musculus with 4 samples.

Results

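These data describe the epithelial cells found in dissected mouse hearts at E10.5, and in particular those without transcripts of *Sox2* or *Nkx2-1*, the transcription factors of the oesophageal, tracheal, lung and thyroid primordia. Transcripts of single cells from whole cardiogenic regions were counted in 4 libraries made with the 10x Chromium system. Libraries 5 and 7 came from control embryos (*Tie2fl/fl*, with floxed *Tie2* and no Cre). Libraries 6 and 8 came from *Tie2-cko* embryos (*Nfatc1Cre;Tie2f/f*), in which a Cre knocked into *Nfatc1* deletes *Tie2* (gene symbol *Tek*) in the endocardium, so that the floxed alleles were common to all 4 libraries and the Cre was particular to the mutants. By the methods 2 hearts of each genotype, taken from 1 litter, were analysed at a stage, and how these hearts map to the libraries is not given in the sources used here. The libraries held 50436 barcodes, from 8877 to 18488 each, with 169361996 to 259775540 UMIs (unique molecular identifiers, each counting 1 captured transcript). Of these barcodes 30415 were kept, each with 1500 or more genes and no more than 10% of its UMIs from mitochondrial genes.

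A cell was counted as epithelial here with at least 2 UMIs of *Epcam*, a surface adhesion molecule of epithelia, and at least 2 UMIs of *Krt8* and *Krt18* together, the keratins of simple epithelia. It had to lack *Sox2* and *Nkx2-1* UMIs, and to stay below 5 UMIs per 10000 for *Afp* (hepatoblasts), 15 for *Tnnt2* (cardiomyocytes, CMs), 500 for *Hbb-y* (red blood cells) and 2 for *Pecam1*, *Cdh5* and *Ecscr* together (endothelial cells). This rule left 443 cells, with 137 in library 5, 88 in library 6, 85 in library 7 and 133 in library 8. They were the smaller part of 1370 *Epcam*-positive cells, among which 677 had *Sox2* UMIs without *Nkx2-1* and 250 had *Nkx2-1* UMIs. The limits on other cell types had removed 180 cells for *Afp*, 149 for *Tnnt2*, 29 for endothelial genes and 25 for *Hbb-y*, some of them for more than 1 reason. Median depth among the 443 cells was 15281 UMIs in library 5, 26450 in library 6, 10217 in library 7 and 12150 in library 8. No barcode was shared between libraries among these cells, whereas 5 to 27 were shared per pair of libraries among all barcodes kept.

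Epithelia of several origins lie around the looping heart. The pharyngeal endoderm lines the foregut behind the outflow tract, folds out into pouches that later give the thymus, the parathyroids and the middle ear, and is patterned by *Tbx1*, *Pax1*, *Pax9* and retinoic acid. The surface ectoderm covers the pharyngeal arches and the body wall, depends on *Trp63* to become stratified epidermis, and is a source of Wnt ligands. Where surface ectoderm meets the pouches, the epibranchial placodes shed neuroblasts that form cranial sensory ganglia. Further caudally the foregut endoderm continues towards stomach and duodenum and is wrapped by mesenchyme that receives its Hedgehog signals.

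The genes used to choose the cells varied with the library, and they are given as a description only. *Epcam* averaged 5.45 UMIs per 10000 in library 5, 3.87 in library 6, 7.74 in library 7 and 7.40 in library 8. *Krt8* averaged 6.95, 6.23, 2.61 and 2.70 in the same order, so that libraries 5 and 6 lay above libraries 7 and 8. *Cldn6*, an embryonic tight-junction claudin that the rule did not use, averaged 1.18, 0.657, 1.23 and 1.36 and had a UMI in 274 of the 443 cells. For reference, 4538 CMs were taken as cells with at least 50 *Tnnt2* UMIs per 10000 and no *Epcam* UMI, so their lack of *Epcam* is no finding. In these CMs *Cldn6* averaged 0.00191, while *Krt8* averaged 0.583. The cells at the edge of the rule were less clearly epithelial. Among the 72 cells with exactly 2 *Epcam* UMIs *Cldn6* averaged 0.272, against 1.31 in those with more and 0.0417 in the 223 cells left outside with 1 *Epcam* UMI.

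Clustering divided the 443 cells into 11 clusters, which were named from marker lists and numbered by size. Pharyngeal endoderm-like cells formed 4 clusters with 183 cells (41.3%), and surface ectoderm-like cells 2 clusters with 77 cells (17.4%). A neuron-like cluster held 21 cells (4.74%). A mesenchyme-like cluster of 72 cells (16.3%) went against the label epithelium. A mesothelium-like cluster held 28 cells (6.32%), the mesothelium being a simple epithelium of mesodermal origin. *Cldn6* had a UMI in 2 of the 72 and 7 of the 28 cells of these clusters, which held 31 and 20 of the 72 cells with exactly 2 *Epcam* UMIs. The remaining 62 cells (13.996%) lay in 2 clusters that could not be named. Levels of marker genes by cluster are descriptions, since the clusters were made from them.

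The libraries held different epithelia. Clusters 2, 5 and 10 came solely from libraries 5 and 6, cluster 3 solely from libraries 7 and 8, and cluster 7 from libraries 7 and 8 but for 1 cell. Each of these pairs holds 1 control and 1 *Tie2-cko* library, so the contrast between the pairs cut across genotype. The labels name no batch, litter or somite stage for any library, and what separates the pairs was not tested. With 2 libraries in each pair, a cell type present in 1 pair and a property of those libraries cannot be told apart.

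**Figure D1:**
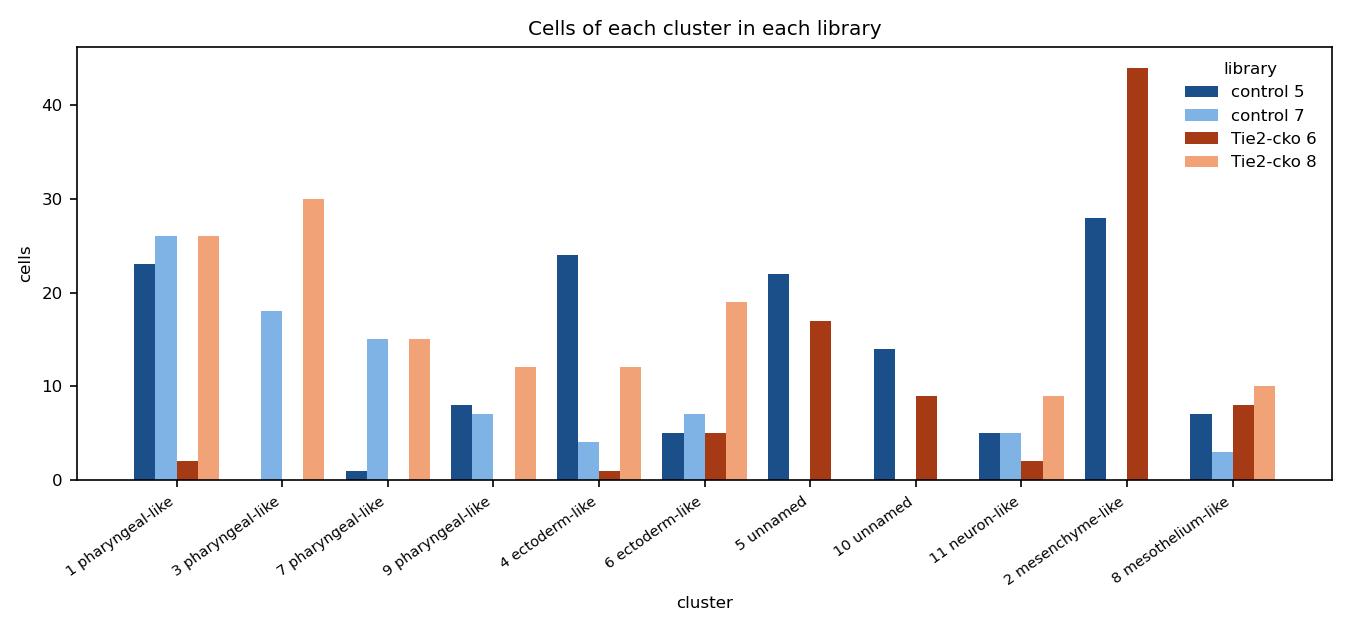
Number of cells (vertical axis) of each cluster in each library, blue for control and red for *Tie2-cko* libraries, with clusters grouped by name along the horizontal axis. Clusters 5, 10 and 2 have bars for libraries 5 and 6 alone, and cluster 3 for libraries 7 and 8 alone.

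Pharyngeal endoderm-like cells were the most frequent class in libraries 7 and 8. Cluster 1 (77 cells) had *Pax1* and *Pax9*, the paired-box factors of the pouch endoderm, as leading genes. *Pax1* averaged 1.73 UMIs per 10000 in the 23 cells of library 5, 1.93 in the 26 of library 7 and 1.51 in the 26 of library 8 (1.72 ± 0.210, SD, n = 3 libraries), and *Pax9* averaged 1.38 ± 0.0568 in the same libraries. Library 6 gave 2 cells, too few for a level. The 3 libraries thus lay close together for both genes. *Nkx2-6*, a homeobox gene of the caudal pouches, averaged 1.28, 0.672 and 0.698, and *Tbx1*, a T-box regulator of pharyngeal development, 0.212 ± 0.0520. *Isl1* averaged 3.08 ± 0.863, while *Foxa2*, a pan-endodermal factor, had no UMI in the 77 cells, which allows a share of up to 3.90% of cells with one. *Top2a*, a topoisomerase of dividing cells, averaged 4.21 ± 1.71 and was among the leading genes beside *Rrm2*, *Loxl2* and *Ckb*. *Gcm2* and *Foxn1*, which mark the parathyroid and thymus domains, were near the level of single UMIs, at 0.0131 and 0.0155.

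Cluster 3 (48 cells) was led by genes of spindle and chromosome segregation and not by pharyngeal markers. *Ube2c*, which drives exit from mitosis, averaged 7.48 in library 7 and 7.52 in library 8. *Pax1* averaged 1.10 and 0.433, and *Pax9* 1.23 and 0.699, in these 2 libraries. The median depth of these cells was 9062.5 UMIs (49.8% of the median in libraries 7 and 8), and they held the largest sum of CM genes among the clusters, at 37.2 UMIs per 10000 over 8 genes against 657 in CMs. At a lower clustering resolution these cells joined the neuron-like ones.

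Cluster 7 (31 cells) was a pharyngeal population led by genes of retinoic acid handling and of pouch patterning. *Aldh1a1*, a retinaldehyde dehydrogenase, averaged 3.04 in library 7 and 1.86 in library 8. *Ripply3*, a repressor partner of *Tbx1* in the caudal pharynx, averaged 1.62 and 3.01. *Edn1*, the endothelin ligand that signals from arch epithelia to neural crest, averaged 1.47 and 1.28. *Pax9* stood at 2.61 and 2.57, whereas *Pax1* stayed at 0.219 and 0.678, and *Tbx1* at 0.735 and 0.703. *Crabp2*, a carrier of retinoic acid, averaged 7.24 and 4.61. Of 23 Hox genes 12 averaged at least 0.1 UMIs per 10000 here, with *Hoxb4* at 1.74 and 0.862, *Hoxb1* at 1.93 and 0.188 and *Hoxa5* at 1.11 and 0.554, whereas 3 of the 23 did so in cluster 1. *Hoxb1* rested mostly on library 7. Genes of G2 and mitosis summed to 5.24 UMIs per 10000 over 20 genes in cluster 7, against 31.9 in cluster 1.

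Cluster 9 (27 cells) was marked by *Foxe1*, a forkhead factor of the thyroid bud and the oral and pharyngeal roof. *Foxe1* averaged 4.89 in the 8 cells of library 5, 3.36 in the 7 of library 7 and 4.10 in the 12 of library 8 (4.11 ± 0.765, SD, n = 3 libraries). The Hedgehog ligand *Shh* averaged 1.04, 0.432 and 0.632, and its receptor and target *Ptch1* 1.72, 0.538 and 1.57. *Shh* and *Ptch1* were thus lowest in library 7, which gave 7 cells. *Krt19* averaged 2.42 ± 0.749, and the desmosomal plaque gene *Dsp* 3.08 ± 1.21. *Trp63* had a UMI in 33.3% of the cells and averaged 0.616 ± 0.207, without *Tfap2a*. The thyroid genes *Pax8* and *Hhex* had UMIs in 11.1% and 14.8% of the cells, and none in library 7. Since *Nkx2-1* was barred by the rule, thyroid cells could enter only where it had not been captured. In a neighbour graph of all 1370 *Epcam*-positive cells, 72.8% of the neighbours of cluster 9 cells were *Sox2*-positive and 16.1% *Nkx2-1*-positive, against 34.2% and 0.278% for cluster 1, 44.8% and 1.79% for cluster 3 and 61.8% and 0.461% for cluster 7.

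**Figure D2:**
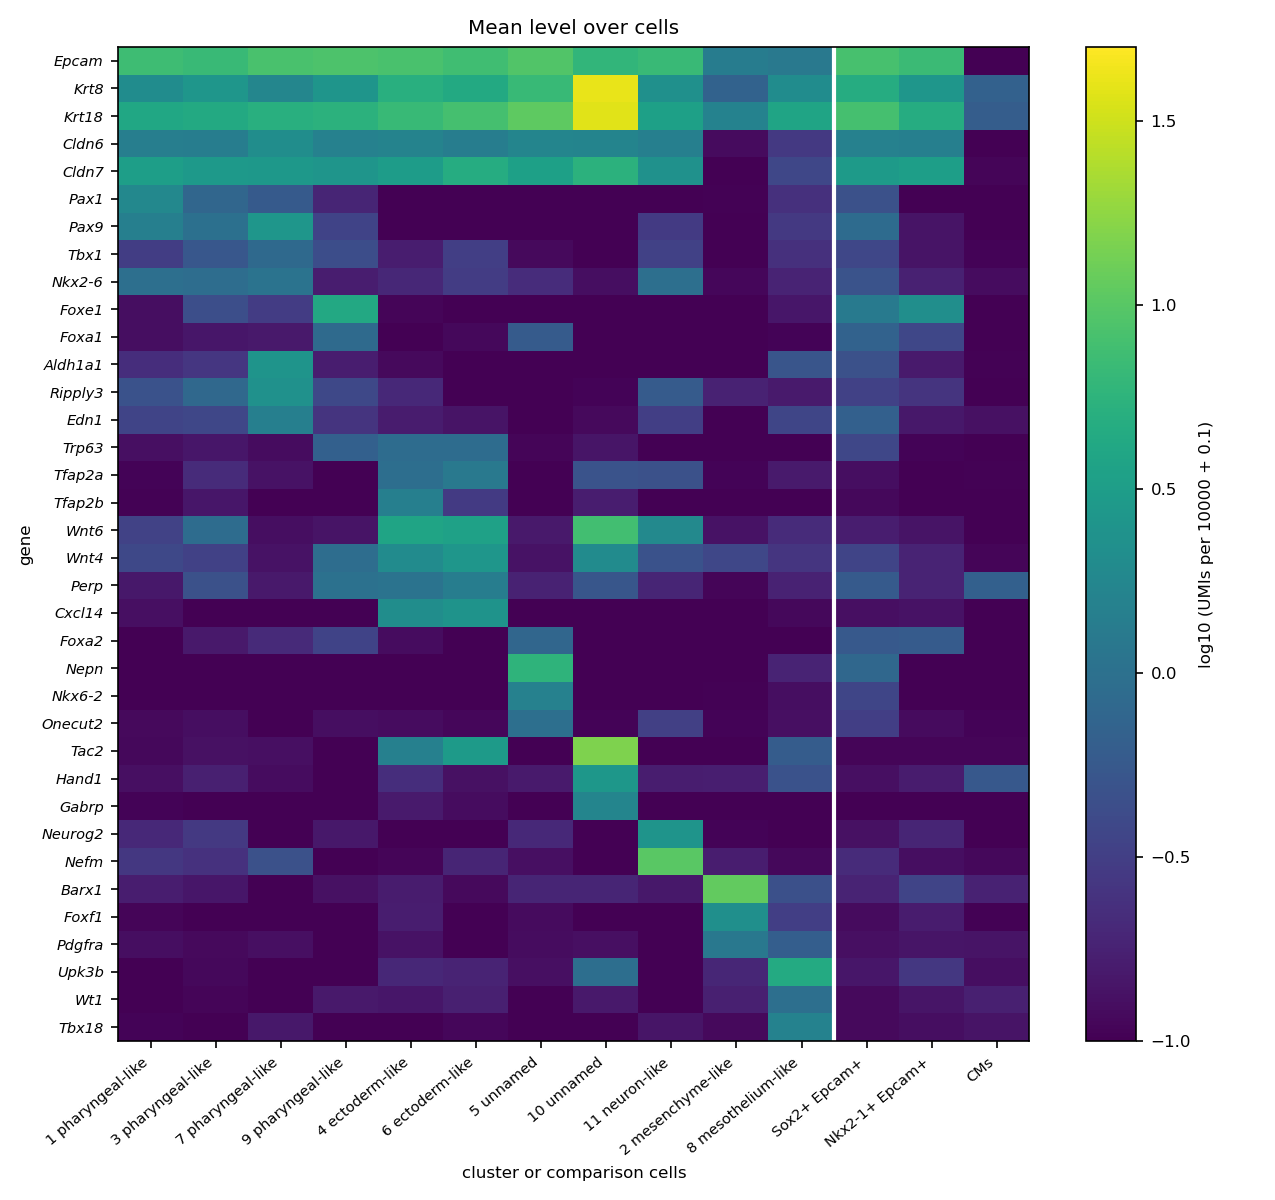
Mean level over cells, as log10 of UMIs per 10000 plus 0.1 (colour), for 36 genes (rows) in the 11 clusters and, right of the white line, in *Sox2*-positive and *Nkx2-1*-positive *Epcam*-positive cells and CMs (columns). *Epcam* and *Cldn6* are bright in 9 clusters and dim in clusters 2 and 8, and blocks of *Pax1*, *Pax9*, *Foxe1*, *Trp63*, *Nepn*, *Tac2*, *Nefm*, *Barx1* and *Upk3b* mark successive clusters.

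Surface ectoderm-like cells were found in all 4 libraries, with 29 cells in library 5, 6 in library 6, 11 in library 7 and 31 in library 8. *Trp63*, the epidermal regulator, averaged 0.847, 0.669, 0.964 and 0.736 UMIs per 10000 (0.804 ± 0.129, SD, n = 4 libraries). *Tfap2a*, an AP-2 factor of ectoderm and neural crest, averaged 0.748, 1.83, 1.12 and 0.974. *Wnt6*, a ligand of early ectoderm, averaged 3.44, 4.69, 2.87 and 3.74, and *Wnt4* 2.20 ± 0.191. In these averages control and *Tie2-cko* libraries did not overlap for *Trp63*, which was lower in *Tie2-cko*, nor for *Wnt4* and *Wnt6*, which were higher, but none of the 3 passed the test given further on, and *Wnt4* overlapped in the summed counts. Of all 3987 genes tested in these cells 27.9% did not overlap in the summed counts. *Perp*, a desmosome gene downstream of *Trp63*, averaged 1.13 ± 0.195. *Pax1* and *Pax9* had no UMI in any of the 77 cells, which allows a share of up to 3.90%. The keratins of stratified skin were scarce. *Krt5* averaged 0.0512 over all 77 cells, *Krt17* 0.0195 and *Krt14* 0.116, and the *Krt14* UMIs lay almost wholly in library 5 (0.296).

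The 2 ectodermal clusters differed in cell cycle genes. Cluster 4 (41 cells) was led by *Tfap2b*, the metallothioneins *Mt1* and *Mt2*, *Pdgfa* and the epidermal gene *Sfn*, and its *Top2a* averaged 2.60 in the 24 cells of library 5 and 5.29 in the 12 of library 8. Cluster 6 (36 cells) had *Top2a* at 0.366, 0.166, 0.401 and 0.375 in libraries 5, 6, 7 and 8, and its 20 genes of G2 and mitosis summed to 3.59 UMIs per 10000 against 29.0 in cluster 4. No library of cluster 6 reached the level of either library of cluster 4. *Bambi*, a decoy receptor for BMP and TGF-beta, averaged 3.52, 4.60, 6.46 and 5.31 in cluster 6. In cluster 4 *Bambi* stood at 0.170 in library 5 and 3.94 in library 8, below cluster 6 in both libraries, but by less in library 8. *Sostdc1*, a secreted BMP and Wnt inhibitor of ectodermal organs, averaged 4.44, 9.61, 4.16 and 2.65 in cluster 6, and 2.87 and 1.69 in cluster 4. *Tfap2b* averaged 1.92 in library 5 and 0.466 in library 8 in cluster 4, *Pdgfa* 9.67 and 3.52, and *Mt1* 14.1 and 5.54, each higher in library 5.

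Cluster 5 (39 cells, 22 in library 5 and 17 in library 6) held 7 of 8 markers of posterior foregut endoderm but was not named. Its median depth of 7892 UMIs was 28.2% of that of its libraries, and no such marker was among its leading genes. Markers of other lists, *Ttr* and *Klf5*, were among them, which also barred the name. *Foxa2* averaged 0.915 in library 5 and 0.394 in library 6, *Onecut2* 0.711 and 1.08, and *Gata4* 0.450 and 0.531. Its leading genes were *Nepn*, a small leucine-rich proteoglycan gene of the gut endoderm, at 5.12 and 6.1, and the homeobox gene *Nkx6-2* at 0.952 and 2.04. *Pdx1*, the homeobox factor of pancreas and duodenum, averaged 0.274 and 1.23, with UMIs in 28.2% of the cells. Genes of secreted plasma proteins that liver and yolk sac also express were among its leading genes, with *Ttr* at 0.387 and 2.07, *Vtn* at 0.612 and 2.14 and *Rbp4* at 2.02 and 3.24, each higher in library 6. *Afp*, which the rule limited, stood at 0.213 and 0.227. In the neighbour graph 63.2% of the neighbours of these cells were *Sox2*-positive.

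Cluster 10 (23 cells, 14 in library 5 and 9 in library 6) stood apart by its keratins. *Krt8* averaged 41.7 in library 5 and 40.04 in library 6, and *Krt18* 40.3 and 34.3, the highest of the 11 clusters. *Tac2*, a tachykinin precursor that was also a leading gene of cluster 6, averaged 14.8 and 15.3. The glucose transporter *Slc2a1* averaged 11.2 and 8.95, and *Wnt6* 7.65 and 7.48. *Hand1*, *Plac8*, *Gabrp* and *Dlk1* were also among the leading genes of cluster 10, with *Hand1* at 2.47 and 2.77 and *Gabrp* at 1.64 and 1.57. Both libraries lay close together for these genes. It had 4 of 10 surface ectoderm markers, *Tfap2a*, *Wnt6*, *Grhl3* and *Perp*, while *Trp63* averaged 0.0408 and *Cxcl14*, a leading chemokine gene of clusters 4 and 6, had no UMI, which allows a share of up to 13.0% of 23 cells. It therefore received no name. Of the neighbours of these cells 99.7% were other *Sox2*-negative and *Nkx2-1*-negative cells.

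Cluster 11 (21 cells) had all 7 neuronal markers and 6 of 8 epibranchial placode markers. *Neurog2*, which starts sensory neurogenesis in the epibranchial placodes, averaged 1.03 in the 5 cells of library 5, 3.68 in the 5 of library 7 and 2.91 in the 9 of library 8. The neurofilament gene *Nefm* averaged 0, 21.6 and 11.6. The 5 cells of library 5 had instead *Foxi2* at 2.54, against 0.229 and 0.924, and *Fgf8* at 6.1, against 0.650 and 1.78. *Foxi2* is a placodal ectoderm factor and *Fgf8* a growth factor of pouch and cleft epithelia. *Nefm* UMIs were present in 33.3% of the cells, so the neuron-like name applied to part of the cluster. *Epcam*, which the rule required, averaged 6.75 ± 0.732 and *Cldn6* 1.23 ± 0.154 (SD, n = 3 libraries).

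Clusters 2 and 8 passed the rule with little *Epcam* and *Cldn6*. Cluster 2 (28 cells in library 5 and 44 in library 6) was led by *Barx1*, a homeobox gene of stomach mesenchyme, at 10.4 and 11.7, and by *Foxf1*, a Hedgehog-responsive factor of gut mesenchyme, at 1.65 and 2.37. *Epcam* averaged 1.62 and 1.02 there, 2 of the 72 cells had a *Cldn6* UMI, and *Cldn7* and *Cdh1* had none, which allows a share of up to 4.17%. Cluster 8 (28 cells) was led by the mesothelial genes *Upk3b* and *Tbx18*. *Upk3b* averaged 5.58 in library 5, 2.85 in library 6 and 5.29 in library 8, and *Wt1* 0.967 ± 0.244 (SD, n = 3 libraries). Over its 28 cells the epithelial genes *Dsp* and *Krt7* averaged 1.18 and 1.29. Its cells had 166% of the median UMIs of their libraries, 6 of the 28 were marked as presumed doublets, and 7 of 8 mesenchyme markers were present as well.

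**Figure D3:**
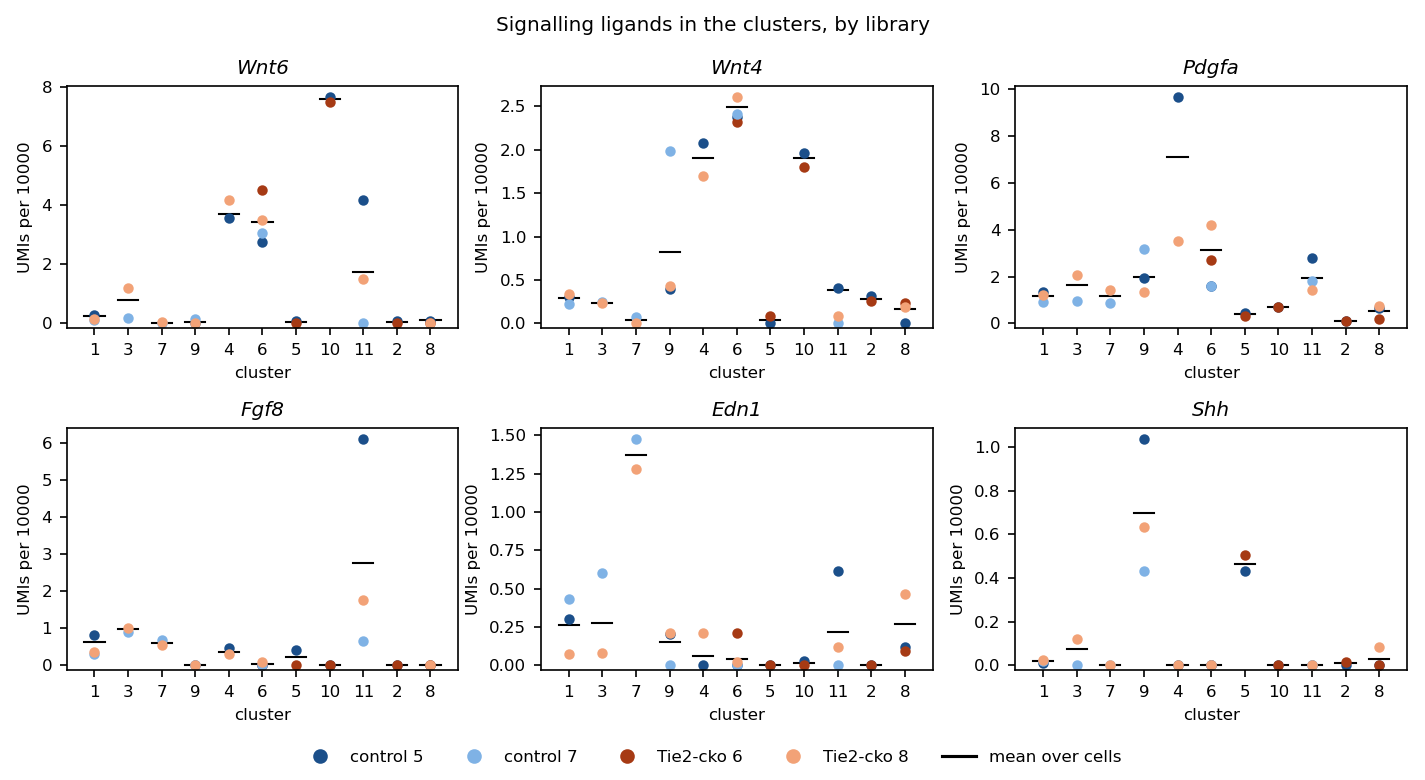
Levels in UMIs per 10000 (vertical axis) of 6 signalling ligand genes in each cluster (horizontal axis), with 1 point per library holding at least 5 of its cells and a bar for the mean over all cells of the cluster. *Wnt6* and *Wnt4* are high in clusters 4, 6 and 10, *Edn1* in cluster 7, *Shh* in clusters 9 and 5, and *Fgf8* in cluster 11 of library 5.

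Signalling genes differed between clusters. The 28 genes of the Wnt pathway list summed to 10.9 UMIs per 10000 in cluster 4, 12.2 in cluster 6, 14.96 in cluster 10 and 8.84 in cluster 11, and to 5.52 or less in the 4 pharyngeal clusters. *Shh* averaged 0.700 in cluster 9 and 0.464 in cluster 5 and had no UMI in the surface ectoderm-like cells, where the Hedgehog co-receptor *Gas1* averaged 2.83 ± 0.719 (SD, n = 4 libraries). *Pdgfa* averaged 8.28, 3.32, 1.97 and 3.95 over the surface ectoderm-like cells of libraries 5, 6, 7 and 8. *Fgf8* averaged 0.637 in cluster 1, 0.970 in cluster 3 and 2.75 in cluster 11. The 15 genes of the retinoic acid list summed to 17.1 in cluster 7 and to between 5.99 and 8.70 in the other 10 clusters. Claudins and junction genes summed to 2.93 in cluster 2 and 6.04 in cluster 8, and to between 9.75 and 20.2 in the other 9.

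Against the *Epcam*-positive cells that the rule left out, the cells with *Sox2* UMIs (n = 677) had UMIs of the pharyngeal genes and little *Tfap2a* or *Wnt6*. In them *Pax1* averaged 0.355 ± 0.218, *Pax9* 0.7997 ± 0.622 and *Foxe1* 1.11 ± 0.618 (SD, n = 4 libraries), while *Tfap2a* averaged 0.0193 ± 0.0217 and *Wnt6* 0.0521 ± 0.0450. *Wnt6* was higher in the surface ectoderm-like cells than in the *Sox2*-positive cells in all 4 libraries. *Trp63* was not limited to the ectoderm, with 0.281 ± 0.183 in *Sox2*-positive cells. The cells with *Nkx2-1* UMIs (n = 250) had no *Pax1* UMI, *Foxe1* at 2.91 ± 2.999 and *Hhex* at 3.53 ± 3.55 (SD, n = 3 libraries), both highest in library 8. No test was made of these contrasts, since the groups were chosen by *Sox2*, *Nkx2-1* and the clustering.

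UMIs of pharyngeal and ectodermal marker pairs were also counted without clusters, although *Trp63* was present in cluster 9 and in *Sox2*-positive cells as well. A UMI of *Pax1* or *Pax9* was present in 30 of 137 cells of library 5 (21.9%), 2 of 88 of library 6 (2.27%), 57 of 85 of library 7 (67.1%) and 58 of 133 of library 8 (43.6%). A UMI of *Trp63* or *Tfap2a* was present in 35 (25.5%), 12 (13.6%), 18 (21.2%) and 44 cells (33.1%). Cells with UMIs of both kinds numbered 3, 0, 2 and 7. With each cell thinned to 5000 UMIs, which left out 6, 3, 3 and 1 shallower cells, the *Pax1* or *Pax9* shares were 19.8%, 1.18%, 56.1% and 32.6%, the *Trp63* or *Tfap2a* shares 13.7%, 4.71%, 9.76% and 17.4%, and the cells with both 1, 0, 1 and 1. In CMs, which should lack these genes and had medians of 20276 to 44759 UMIs, at most 0.531% of cells of a library had a *Pax1* or *Pax9* UMI before thinning and at most 0.0760% after it. All 8 shares of the epithelial cells lay above those of CMs. The order of the libraries for *Pax1* and *Pax9* was the same before and after thinning, with library 7 highest and library 6 lowest.

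The genotypes were compared to learn whether these cells differed in number or expression with loss of endocardial *Tie2*. The 443 cells made up 1.52% of the barcodes kept in library 5 (95% exact Clopper-Pearson interval 1.28 to 1.79), 1.97% in library 6 (1.58 to 2.42), 1.07% in library 7 (0.853 to 1.32) and 1.48% in library 8 (1.24 to 1.76). Control libraries averaged 1.29 ± 0.320% and *Tie2-cko* libraries 1.73 ± 0.343% (SD, n = 2 each), a difference of 0.434 percentage points (two-sided exact permutation p = 0.667). The genotypes overlapped, since control library 5 lay above *Tie2-cko* library 8. The rule sets its limits for *Epcam*, keratins, *Sox2* and *Nkx2-1* in UMIs, whatever the depth of a cell. Library 6 was the deepest, with a median of 36302.5 UMIs per barcode kept, against 16625 to 22023 in libraries 5, 7 and 8. The part of depth in the shares was not tested. Within the pairs of libraries that share clusters, the *Tie2-cko* share was the higher one. The difference was 0.451 points between libraries 6 and 5, and 0.417 points between libraries 8 and 7. Without clusters 2 and 8, 102 of 9019 barcodes kept were left in library 5 and 36 of 4468 in library 6, a lower share in library 6. Libraries 7 and 8 then had 82 of 7965 and 123 of 8963, a higher share in library 8. With 2 libraries against 2 the smallest p such a test can give is 0.333. Surface ectoderm-like cells made up 21.2% and 12.9% of the cells in the control libraries 5 and 7, and 6.82% and 23.3% in the *Tie2-cko* libraries 6 and 8 (exact permutation p = 1). Pharyngeal endoderm-like cells made up 23.4% and 77.6% in control and 2.27% and 62.4% in *Tie2-cko* (exact permutation p = 0.667). For both classes the libraries of a genotype differed more from each other than the genotype means did. Neuron-like cells made up 3.65% and 5.88% in control and 2.27% and 6.77% in *Tie2-cko* (exact permutation p = 1). Within the pairs, surface ectoderm-like cells differed by -14.3 points between libraries 5 and 6 and by 10.4 between libraries 7 and 8, and pharyngeal endoderm-like cells by -21.1 and -15.2. Mesothelium-like cells made up 5.11% and 3.53% in control and 9.09% and 7.52% in *Tie2-cko*, which did not overlap, at the smallest p that the design allows (exact permutation p = 0.333).

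Expression was compared on UMI counts summed over the cells of a library, from 1096073 to 3501423 UMIs. *Tek* itself cannot serve as a check of genotype in these cells, in which it averaged 0.0243, 0.00397, 0.0249 and 0.0290 UMIs per 10000 in libraries 5, 6, 7 and 8. *Nfatc1*, the gene that drives the Cre, averaged 0.00748. Over all 443 cells edgeR's quasi-likelihood test called 0 of 10329 genes (0% called) at a Benjamini-Hochberg adjusted p of 0.05. Before adjustment 135 genes had p under 0.05, and DESeq2 called 4. Without clusters 2 and 8 (343 cells) edgeR called 0 of 9003 genes (0%), 149 had p under 0.05 before adjustment, and DESeq2 again called 4. In the 77 surface ectoderm-like cells edgeR called 0 of 3987 genes (0%), with 114 below 0.05 before adjustment and 4 called by DESeq2. With a block that sets libraries 5 and 6 against 7 and 8, a pairing taken from the content of the libraries and not from their labels, edgeR called 12 genes over all cells, 60 without clusters 2 and 8 and 0 in the surface ectoderm-like cells. A count of 0 does not show that expression was alike. The libraries of the genotypes did not overlap for 27.9% of the genes over all cells, 30.2% without clusters 2 and 8 and 27.9% in the surface ectoderm-like cells.

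The 4 genes that DESeq2 called in each set of cells were globin genes, all lower in *Tie2-cko*. They were *Hbb-y*, *Hba-x* and *Hbb-bh1* with *Hba-a2* over all cells and without clusters 2 and 8, and with *Hba-a1* in the surface ectoderm-like cells. Over all 443 cells *Hbb-y*, the embryonic beta-like globin, had 2680 CPM (UMIs scaled to library size) in library 5 and 1339 in library 7, both control, and 494 in library 6 and 537 in library 8, both *Tie2-cko*. The log2 fold change was -2.02 (SE 0.324, edgeR adjusted p = 1.00, DESeq2 adjusted p = 3.03e-06), and with the block -1.95 (edgeR adjusted p = 0.00115). The rule itself capped *Hbb-y*, and this cap left out 21 cells of library 5, 0 of library 6, 3 of library 7 and 1 of library 8. The values of *Hbb-y* are therefore a description in every set of cells and setting, and no conclusion is drawn from its tests. *Hba-x*, the embryonic alpha-like globin, stood at 1564 and 750 in control and 313 and 298 in *Tie2-cko* (log2 fold change -1.98). Neither gene overlapped between genotypes, like the 27.9% of all genes tested given above. In the surface ectoderm-like cells alone *Hbb-y* had 2987 and 1695 CPM in control and 511 and 621 in *Tie2-cko*, with a log2 fold change of -2.08 (SE 0.284, edgeR adjusted p = 0.0617, DESeq2 adjusted p = 5.36e-05), and with the block -2.01 (edgeR adjusted p = 0.0596). Globins are products of red blood cells. All 6 listed red blood cell genes summed to 69.8 and 32.6 UMIs per 10000 in the control libraries and 12.6 and 13.5 in the *Tie2-cko* libraries. The same 6 genes summed to 67.2 and 32.8 against 12.9 and 10.9 in *Sox2*-positive epithelial cells, and to 45.8 and 19.6 against 10.955 and 7.79 in CMs (exact permutation p = 0.333 for each group of cells). Barcodes with at least 500 *Hbb-y* UMIs per 10000 made up 14.015% and 7.63% of those kept in control and 10.989% and 2.14% in *Tie2-cko*. The part of red blood cells or their free RNA in the globin difference was not tested.

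**Figure D4:**
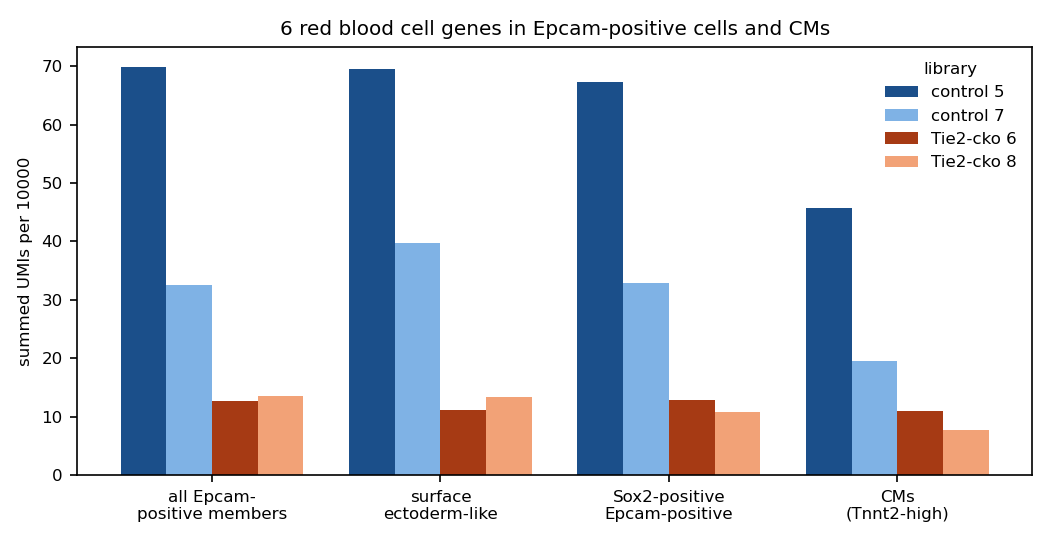
Summed level of 6 red blood cell genes in UMIs per 10000 (vertical axis) for 4 kinds of cells (horizontal axis), with 1 bar per library. In each kind of cell the 2 control libraries (blue) stand above the 2 *Tie2-cko* libraries (red).

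No member of the pathway lists passed the edgeR test without the block. With it edgeR called *Aldh1a2*, an enzyme of retinoic acid synthesis, over all cells (log2 fold change 1.83, adjusted p = 0.0231). The same fit called the immediate early gene *Fos* (-1.04, edgeR adjusted p = 0.0388) and *Foxf1* (1.60), a leading gene of mesenchyme-like cluster 2. The mean level of *Aldh1a2* was 0.778 in cluster 2 and 0.870 in cluster 8. Cluster 2 made up 20.4% of the cells in library 5 and 50% in library 6. *Aldh1a2* was not among the block calls without clusters 2 and 8. The part of this mix in the *Aldh1a2* call was not tested. Without clusters 2 and 8 the block gave calls for *Fos* (-0.69, edgeR adjusted p = 0.0209), *Wnt6* and *Bambi*. Over all 443 cells 19 of the 20 genes of G2 and mitosis had a positive log2 fold change, with a median of 0.28 against 0.00 over all genes tested. The genotypes did not overlap for 9 of the 20, beside 27.9% of all genes tested. Without clusters 2 and 8, 18 of the 20 were positive (median 0.25), and the genotypes did not overlap for 7, beside 30.2% of all genes in that set. In the surface ectoderm-like cells 1 of the 17 tested had a positive value and the median was -0.56, so the direction differed in these cells. Immediate early genes, which respond to dissociation as well as to growth factors, had 9 of 11 negative values over all cells (median -0.56) and 1 of 4 in the surface ectoderm-like cells (median 0.24). Claudins and junction genes had 21 of 26 negative values over all cells (median -0.29) and 5 of 25 without clusters 2 and 8 (median 0.12). Wnt pathway genes went both ways, with 11 positive and 11 negative values over all cells (median 0.00) and 5 of 7 positive in the surface ectoderm-like cells (median 0.07). *Wnt6* had a log2 fold change of -0.31 over all cells and 0.56 without clusters 2 and 8 (with the block 0.83, edgeR adjusted p = 5.84e-05). Among the cells of that set with high *Wnt6*, cluster 10 gave 14 of 102 in library 5 and 9 of 36 in library 6. Surface ectoderm-like cells were 29 of 102 and 6 of 36 in these libraries, and 11 of 82 and 31 of 123 in libraries 7 and 8. The part of this mix in the *Wnt6* call was not tested. In the surface ectoderm-like cells *Wnt6* had a log2 fold change of 0.35 (SE 0.308), *Tfap2a* 0.54 (SE 0.367), *Bambi* 0.92 (SE 0.612) and *Pdgfa* -0.59 (SE 0.478), none past the test. *Pdgfa* was a leading gene of cluster 4, and the part of the mix of clusters 4 and 6 in these values was not tested. *Bambi* had 76.6 and 455 CPM in control and 412 and 441 in *Tie2-cko*, so that library 5 alone was low. Without clusters 2 and 8 *Bambi* had 90.4 and 87.3 CPM in control and 220.2 and 163 in *Tie2-cko*. The genotypes did not overlap, like 30.2% of all genes in that set. The log2 fold change was 1.02 (SE 0.210, edgeR adjusted p = 1.00, and 9.21e-08 with the block). The mean level of *Bambi* was highest in cluster 6, at 5.19. This cluster gave 5 of 102 and 7 of 82 cells in control libraries 5 and 7. It gave 5 of 36 and 19 of 123 in *Tie2-cko* libraries 6 and 8. Within cluster 6 the levels of *Bambi* given above overlapped between genotypes, while in cluster 4 library 8 lay above library 5. The part of this mix in the *Bambi* call was not tested.

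Sex-linked transcripts set library 5 apart. *Xist*, the X inactivation RNA, had UMIs in 19 of its 137 epithelial cells (13.9%) and Y-linked genes in 80 (58.4%), with both in 5. In libraries 6, 7 and 8 no epithelial cell had a *Xist* UMI, which allows shares of up to 3.41%, 3.53% and 2.26%, and Y-linked UMIs were present in 72.7%, 60.0% and 64.7% of them. Among all barcodes kept, *Xist* UMIs were present in 1405 of 9019 in library 5 and in 8 of 4468, 4 of 7965 and 9 of 8963 in libraries 6, 7 and 8. Library 5 was thus the only one of the 4 with a sizeable share of *Xist*-positive cells.

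In the GRCm38 assembly with GENCODE M21 genes, the genes that mark these cells lie on many chromosomes. *Epcam* spans chr17:87635979-87651129 on the plus strand and *Cldn6* chr17:23679249-23682446. *Krt8* (chr15:101996698-102004482, minus strand) and *Krt18* (chr15:102028180-102032027, plus strand) are neighbours. *Pax1* spans chr2:147361925-147393295, *Pax9* chr12:56691767-56712822, *Foxe1* chr4:46343609-46346412, *Trp63* chr16:25683763-25892102 and *Wnt6* chr1:74771892-74785322, all on the plus strand, and *Tfap2a* chr13:40715302-40738376 on the minus strand.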

How the data were processed

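The authors deposited UMI counts per gene (32285 genes) and barcode, without normalization. They were made with Cell Ranger (6.1.2 per the file headers, while the methods name another version) on the mm10 build named in the submitters' processing notes. By the methods, control and mutant libraries were matched by somite number within a litter, but which ones match is not given. P-values measure only the spread between libraries. All else was computed here with Python 3.11.15, scanpy 1.11.5, R 4.3.3, edgeR 4.0.16 and DESeq2 1.42.0.

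The cells, the lists and the rule for named genes were chosen with earlier results of these data known. Each level is an average over cells, in UMIs per 10000, per library with at least 5 cells. Scrublet, as run by scanpy, marked 7, 3, 1 and 2 cells of libraries 5, 6, 7 and 8 as presumed doublets, which were kept. Leiden clustering at a resolution of 0.8 used 2000 variable genes without those of the rule, 20 principal components and 15 neighbours. A cluster took the name of the list with the largest share of markers present, if at least 0.5 and at least 3 markers. Presence meant at least 0.1 UMIs per 10000 and at least 0.25 of the highest mean level among the clusters, CMs and red blood cells. The latter were barcodes kept with at least 500 *Hbb-y* UMIs per 10000. Clusters with a median depth under 33.3% of that of their libraries and no such marker among their 10 leading genes stayed unnamed, as did clusters led by markers of another list (set after seeing the clusters). Leading genes had the largest ratio to the other cells of the same libraries, which was library 8 alone for clusters 6, 8 and 9 and library 5 alone for cluster 10. The named genes are the leading genes, the listed markers, the pathway genes with the highest levels, *Tek*, *Nfatc1* and sex-linked genes. Other pathway genes, *Sostdc1*, the globins and the ligands plotted were added after their values were seen.

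Sums of counts per library were tested with edgeR's quasi-likelihood test (TMM, filterByExpr, Benjamini-Hochberg adjustment), which was tested on simulated data, where it missed most changes of the smaller size tried and, without clusters 2 and 8 and in the surface ectoderm-like cells, made more false calls than its threshold allows. Shares were compared with exact permutation tests. No class had 10 cells in every library, the minimum set for a test, so the surface ectoderm-like cells (at least 6) and the cells outside clusters 2 and 8 were tested as additions made after seeing the data. Intervals and limits cover counting error only. Alternatives were other limits on *Epcam*, gene number and mitochondrial UMIs, doublet removal, other resolutions and size factors, DESeq2, no count filter, a block for libraries 5 and 6 against 7 and 8, and leaving out each library. Some genes are not reported here.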

Additional observations from a re-analysis of the deposited data

How the results depend on the processing

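The difference in the share of cells passing the rule stayed positive under all alternatives run, none of which left out clusters 2 and 8. Without these clusters the share was lower in *Tie2-cko* library 6 than in control library 5, as given above. The difference lay between 0.191 and 0.676 percentage points when 1 library was left out. It was 1.05 with an *Epcam* minimum of 1 UMI and 0.249 with one of 3. With the minimum of 3, with 500 genes, with 5% mitochondrial UMIs or without presumed doublets the libraries of the genotypes did not overlap (exact permutation p = 0.333). Class shares other than the mesothelium-like one did not keep a direction. Leaving out 1 library, the difference between *Tie2-cko* and control ranged from -10.2 to 6.25 points for surface ectoderm-like cells, where it turned positive without control library 5 (2.12) or *Tie2-cko* library 6 (6.25). It ranged from -48.2 to 11.9 for pharyngeal endoderm-like cells (positive without library 6, 11.9, or library 7, 8.98), from -10.2 to 39.8 for mesenchyme-like cells (negative without library 6, -10.2), from -2.49 to 2.001 for neuron-like cells (positive without library 6, 2.001, or library 7, 0.870) and from 3.20 to 4.78 for mesothelium-like cells. At a resolution of 0.5, with 8 clusters, cluster 3 joined the neuron-like cells and their difference became 0.444. At 1.2, with 12 clusters, cluster 7 stayed unnamed.

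Over all cells DESeq2 called 4 genes, edgeR without a count filter 27 and with a block of libraries 5 and 6 against 7 and 8 12, against 0. Without clusters 2 and 8 these counts were 4, 17 and 60, and 0 to 30 when 1 library was left out (30 without control library 7). In the surface ectoderm-like cells DESeq2 called 4 and edgeR without a filter 7, and leaving out 1 library gave 0 to 37 (5 without library 5, 37 without library 7 and 27 without library 8). A library left alone in its group was assumed to vary like the others. Causes were not tested. The log2 fold change of *Hbb-y*, which the rule capped, is given as a description only. It ranged from -2.43 to -1.45 over 11 settings in all cells, and from -2.45 to -1.55 over 9 in the surface ectoderm-like cells. The labels give the genotypes no shared replicate numbers, so the pairing in the block rests on the content of the libraries. With the block 0 genes were called in the surface ectoderm-like cells. The planned test per named class was not run for want of cells, nor were doublet removal and the *Epcam* minimum for the added tests. Depth limits the levels of transcription factors, many of which rest on a few UMIs per cell.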
